A study of Mus musculus with 2 samples.

Results

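Caveolae are small flask-shaped pits of the plasma membrane, and the genes described here encode the proteins that shape their bulb and their neck. Members were 8 genes (Cav1, Cav2, Cavin1, Cavin2, Ehd1, Ehd2, Ehd4 and Pacsin2), and every probe set annotated to exactly 1 of them was taken, which gave 19 of the 45037 probe sets used. They were chosen by a measured value, the low ratio of Cavin2 in this same comparison, so the values below describe the members and test nothing. Of the 8 genes, 5 passed the signal filter given below, as did 10678 of the 18193 genes with a probe set of 1 symbol. Total RNA of Neuro2a cells, an established mouse neuroblastoma line, had been hybridised as biotin-labelled target to Affymetrix Mouse Genome 430 2.0 arrays. The Tmem132a siRNA group was 1 array from cells transfected with an siRNA against mKIAA1583 (Tmem132a), and the control siRNA group was 1 array from cells given a non-specific siRNA. Both are therefore transfected cells of 1 line, and the siRNA sequence, its dose and the time after transfection are not given in the sources used here. With 1 array per group no test and no replicate error were possible, and differences are given by size.

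Caveolins are hairpin membrane proteins that oligomerise into the inner scaffold of the caveolar bulb, and cavins are cytosolic coiled-coil proteins that coat it from outside. EHD proteins are dynamin-like ATPases that form rings at the neck and hold caveolae at the surface, and PACSIN2 is a curved F-BAR protein that helps to shape the neck. Caveolae abound in endothelium, adipocytes and muscle, whereas neurons are known for having few of them.

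The promoter windows of 3 members are shown first, because they belong to the gene with the largest difference (Cavin2), to its relative whose probe sets stayed dim (Cavin1) and to a gene with nearly equal signals on both arrays (Ehd4). The RefSeq table for build GRCm38.p6 held windows for 7 of the 8 members, each with 250 bases before and 50 after a transcription start, read on the gene's strand. Capitals mark matches, on either strand, to CCAAT (the CCAAT box), GGGCGG (the GC box), CATTCC (the MCAT element), TATAAA (the TATA box) or the CArG box. None of the matches in these windows overlapped another.
Cavin2, chr1:51288876-51289175, plus strand: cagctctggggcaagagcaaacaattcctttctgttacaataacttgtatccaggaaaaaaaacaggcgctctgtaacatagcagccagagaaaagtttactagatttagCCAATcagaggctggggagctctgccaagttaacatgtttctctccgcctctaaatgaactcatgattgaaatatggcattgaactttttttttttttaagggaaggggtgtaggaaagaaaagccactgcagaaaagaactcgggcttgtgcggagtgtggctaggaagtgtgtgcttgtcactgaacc
Cavin1, chr11:100970568-100970867, minus strand: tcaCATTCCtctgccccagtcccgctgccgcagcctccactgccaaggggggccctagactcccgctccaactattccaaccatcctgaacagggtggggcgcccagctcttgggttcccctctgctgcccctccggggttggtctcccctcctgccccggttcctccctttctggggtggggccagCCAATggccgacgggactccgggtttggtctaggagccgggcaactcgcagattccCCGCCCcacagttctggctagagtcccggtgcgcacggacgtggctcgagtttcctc
Ehd4, chr2:120154526-120154825, minus strand: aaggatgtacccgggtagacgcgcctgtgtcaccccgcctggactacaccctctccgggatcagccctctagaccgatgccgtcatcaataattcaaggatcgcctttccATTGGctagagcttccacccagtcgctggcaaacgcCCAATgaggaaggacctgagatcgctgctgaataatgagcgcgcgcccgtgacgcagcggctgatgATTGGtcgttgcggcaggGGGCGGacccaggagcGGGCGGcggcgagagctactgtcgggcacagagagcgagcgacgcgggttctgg

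The Cavin2 window held 1 CCAAT match, 140 bases before the start, and no match to the other 4 motifs. The Cavin1 window held 1 match each to the CCAAT box, the GC box and the MCAT element. That of Ehd4 held 3 CCAAT matches and 2 GC boxes. Among all 32851 windows of the table, 37.4% held a CCAAT match, 35.7% a GC box, 14.7% an MCAT element, 13.6% a TATA match and 1.6% a CArG box. G and C made up 43.3% of the Cavin2 window, against 66.7% for Cavin1, 62.7% for Ehd4 and a median of 52.7% over the table. The first listed windows of Cav1, Cav2, Ehd2 and Pacsin2 had GC shares of 59.3%, 64.3%, 62.0% and 65.3%, so the Cavin2 window had the lowest share among these 7. Each of the other 6 first windows held at least 1 GC box. The further windows listed for Cav1 and Pacsin2 held none, and those of Pacsin2 had GC shares of 48.0% and 53.3%. These matches describe letters in a window and were not linked to the array values by any measurement here.

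Signals were deposited as MAS5 values, a linear measure of probe-set brightness. A probe set was used for ratios when its mean signal over both arrays reached 77.25, the median of all probe sets, since ratios of dimmer ones vary widely. Of the 19 member probe sets, 12 passed, and they gave values for 5 genes, Cav2, Cavin2, Ehd1, Ehd2 and Ehd4. Cav1 and Cavin1 had only dimmer probe sets. Pacsin2 had no probe set annotated to it alone in the table used here. Every probe set of Cavin2, Cav2, Ehd1 and Ehd4 that passed was also above 77.25 on each array by itself, and so were 2 of the 3 of Ehd2.

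As a check of the labels, Tmem132a itself had a signal of 435.6 on the Tmem132a siRNA array and 1825.5 on the control siRNA array, which is 23.9% of the control level. The description given with that array names the control siRNA, whereas its title and treatment protocol name Tmem132a, as does the lower signal. Median signals were 81.9 and 76.5 on the Tmem132a siRNA and control siRNA arrays, and both trimmed means were 500.003. Over all 10678 genes with a value, the median log2 ratio of Tmem132a siRNA over control siRNA was 0.02 and the quartiles were -0.26 and 0.28.

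Of the 5 caveolar genes with a value, 1 was at least 2-fold lower on the Tmem132a siRNA array and 0 were at least 2-fold higher. Over all genes, 261 (2.44%) were at least 2-fold lower and 224 (2.10%) at least 2-fold higher. Since the members were proposed from this contrast, nothing is read from that count. The single gene was Cavin2, and the other 4 lay between -0.11 and 0.35 on the log2 scale. The median over the 5 genes was -0.01, and without Cavin2 it was 0.00, beside 0.02 for all genes. The median of the caveolar genes thus lay beside that of all genes. For probe sets past the filter, the plot of signals by array shows the steep lines of Cavin2 beside the nearly level ones of Cav2 and Ehd4. Below the filter, 2 dim probe sets also rise steeply toward the control siRNA array. With the Tmem132a siRNA and the control siRNA, 1453891_at of Cavin1 read 1.9 and 28.0, and 1417327_at of Cav2 read 4.4 and 16.4.

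**Figure D1:**
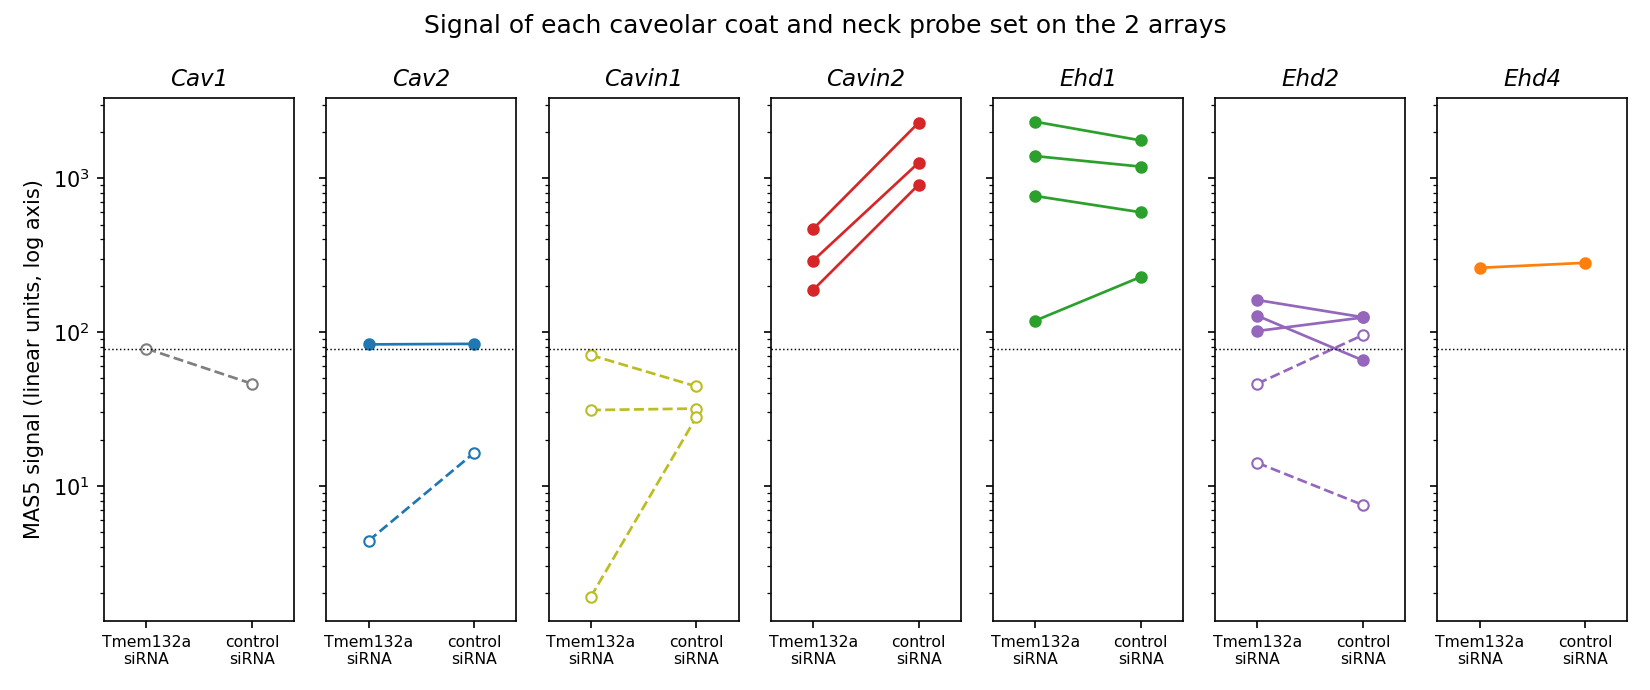
MAS5 signal (log axis) of every member probe set on the Tmem132a siRNA array and on the control siRNA array, 1 line per probe set, 1 array per group. Filled points on solid lines passed the signal filter, open points on dashed lines did not, and the dotted line marks 77.25. All 3 Cavin2 lines rise steeply toward the control siRNA array, 3 of 4 Ehd1 lines slope slightly the other way, and the Cavin1 and Cav1 points lie near or below the dotted line.

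Cavin2 (Entrez 20324), also known as serum deprivation response protein, is a cavin that binds phosphatidylserine, recruits cavin-1 to caveolae and can bend membranes. Its brightest probe set, 1416778_at, read 467.8 with the Tmem132a siRNA and 2298.0 with the control siRNA. The probe set 1416779_at gave 291.1 with the Tmem132a siRNA and 1261.6 with the control siRNA. The third, 1443832_s_at, gave 187.5 with the Tmem132a siRNA and 908.4 with the control siRNA. All 3 were thus lower on the Tmem132a siRNA array by nearly the same factor, to 20.4%, 23.1% and 20.6% of the control level. The gene's log2 ratio was -2.23 with an SD of 0.10 over its 3 probe sets, a 4.69-fold lower signal. That SD covers disagreement of probe sets on the same 2 RNA samples and not variation between cultures. The first and second probe sets are annotated to the same sequence record, so they may share sequence, while the third has another record.

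Set against probe sets of like brightness, Cavin2 stood at the edge. For each of its 3 probe sets, the 2001 probe sets nearest in rank of mean signal were taken, and in each case that Cavin2 probe set had the lowest ratio of the 2001. The SD of the ratios in these windows was 0.40 around 1416778_at, 0.44 around 1416779_at and 0.46 around 1443832_s_at. Among the 2168 genes for which 3 or more probe sets passed, Cavin2 had the lowest gene ratio. Over all 10678 genes 18 were as low or lower, Cavin2 included, and the others at that level had fewer probe sets. These places describe a gene that was chosen for its low ratio. In bulk RNA, fewer cells carrying a transcript and less transcript per cell cannot be told apart.

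**Figure D2:**
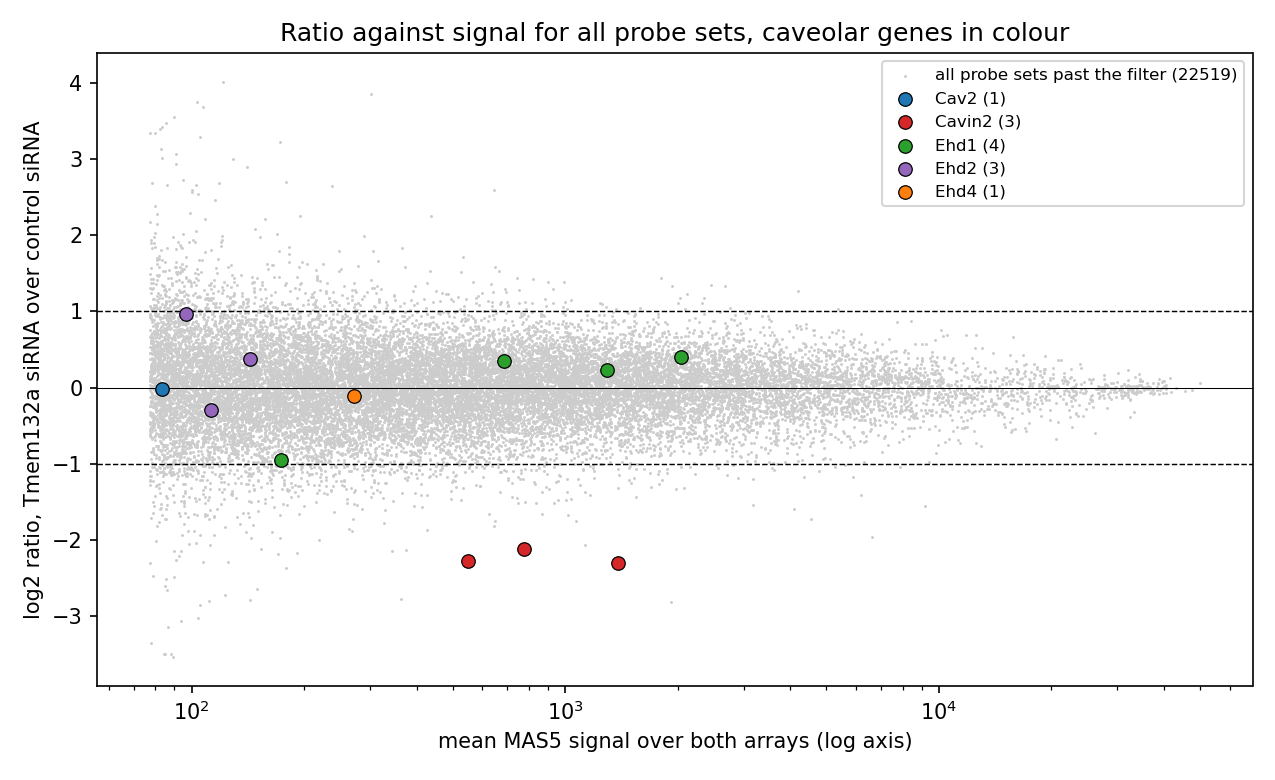
Log2 ratio of Tmem132a siRNA over control siRNA against mean MAS5 signal over both arrays (log axis) for the 22519 probe sets past the filter in grey, with member probe sets in colour and their number per gene in the legend. Dashed lines mark 2-fold. The 3 Cavin2 points lie between -2.12 and -2.30, below the grey cloud at their signal, while the other member probe sets lie within 2-fold.

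Cavin1, known as PTRF, is the cavin without which caveolae do not form, and it was dim on both arrays. Its brightest probe set, 1424130_a_at, read 70.8 with the Tmem132a siRNA and 44.3 with the control siRNA. Its second, 1421431_at, gave 31.1 with the Tmem132a siRNA and 31.8 with the control siRNA. The last, 1453891_at, gave 1.9 with the Tmem132a siRNA and 28.0 with the control siRNA. These 3 probe sets were higher, level and lower on the Tmem132a siRNA array, and all 3 were under the filter on both arrays, so no ratio is given. Cavin1 therefore could not be compared at this brightness, which does not show that it was equal or absent.

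The caveolins were near the filter. Cav1 encodes caveolin-1, the main scaffold protein of caveolae outside striated muscle, and its probe set 1449145_a_at read 78.0 with the Tmem132a siRNA and 46.1 with the control siRNA. Its mean lay below the filter. Cav2 encodes caveolin-2, which depends on caveolin-1 to reach the surface, and its probe set 1425955_at gave 83.1 with the Tmem132a siRNA and 83.8 with the control siRNA. That is a log2 ratio of -0.01, close to the middle of all genes. The other Cav2 probe set, 1417327_at, was dimmer, with 4.4 for the Tmem132a siRNA and 16.4 for the control siRNA. The lower ratio of Cavin2 was therefore measured in cells whose caveolin and Cavin1 probe sets were near or below the filter on both arrays.

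Ehd1 encodes the EHD protein best known for sending cargo from recycling endosomes back to the surface, and it had 4 probe sets past the filter. The brightest, 1416010_a_at, read 2329.6 with the Tmem132a siRNA and 1761.6 with the control siRNA. Next, 1416011_x_at gave 1393.1 with the Tmem132a siRNA and 1190.0 with the control siRNA, and 1448175_at gave 766.7 with the Tmem132a siRNA and 600.8 with the control siRNA. These 3 were thus 1.32-, 1.17- and 1.28-fold higher on the Tmem132a siRNA array. The dimmest, 1416012_at, went the other way, with 118.6 for the Tmem132a siRNA and 228.4 for the control siRNA, a log2 ratio of -0.95. The gene mean of 0.01 therefore averages probe sets that disagree, with an SD of 0.64. It was 0.33 when 1416012_at was left out, a choice made after its value was seen, and -0.30 without probe sets of the x, s and a kinds, which can match several transcripts. All 4 are annotated to 1 sequence record, and the gene's direction on these arrays is not settled.

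Ehd2 encodes the EHD protein that sits at the caveolar neck itself, and it had 5 probe sets, 3 of them past the filter. The brightest, 1424157_at, read 161.4 with the Tmem132a siRNA and 124.8 with the control siRNA. The second, 1435785_at, gave 101.6 with the Tmem132a siRNA and 124.4 with the control siRNA, and 1459823_at gave 127.5 with the Tmem132a siRNA and 65.4 with the control siRNA. These 3 pointed both ways, and the gene's log2 ratio was 0.35 with an SD of 0.63. Below the filter, 1427729_at had 46.2 with the Tmem132a siRNA and 95.7 with the control siRNA, and 1424158_at was under 15 on both arrays. With all 5 probe sets the gene ratio was 0.00, so the higher mean rests on which dim probe sets are kept.

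Ehd4 encodes an EHD protein of early and recycling endosomes that can act with EHD1 and EHD2 at caveolae. Its single probe set, 1449852_a_at, read 261.6 with the Tmem132a siRNA and 281.9 with the control siRNA. The log2 ratio was -0.11, and 851 of the 2001 probe sets of like signal were as low or lower. Ehd4 thus sat near the middle of its surroundings.

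Further genes of the same families came from a list compiled with earlier results of these data known. Of its 16 genes all had a probe set and 12 passed the filter. Of these 12, 0 were at least 2-fold lower and 0 at least 2-fold higher, 8 had a ratio above 0, and the median was 0.15, beside 0.02 for all genes. Cavin3, a cavin first described as a protein kinase C delta binding protein, came closest to 2-fold on the lower side. Its probe set had a signal of 99.0 with the Tmem132a siRNA and 193.8 with the control siRNA, a log2 ratio of -0.97. That ratio was -0.62 when 79.2 was added to all signals and no floor was set. Both cavins that passed the filter were lower on the Tmem132a siRNA array, but Cavin2 was chosen for its low ratio. Over all genes 48.2% had a ratio below 0, so nothing is read from this. The brightest probe set of Cavin1, below the filter, was higher on the Tmem132a siRNA array. Cavin4, the muscle cavin, had 72.0 with the Tmem132a siRNA and 65.5 with the control siRNA and did not pass. Cav3, the muscle caveolin, was under 4 on both arrays.

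Values of further list members were mixed. Pacsin1, the neuronal member of the PACSIN family, had 106.0 with the Tmem132a siRNA and 53.7 with the control siRNA, a log2 ratio of 0.98. It passed the filter only through the Tmem132a siRNA array, and with no filter its ratio was 0.49. Pacsin3 had a gene ratio of 0.56 from 1 probe set. Dnm2, the ubiquitous dynamin that cuts vesicle necks, had a ratio of 0.67, and its 6 probe sets past the filter ran from 0.19 to 1.16, so each of those was higher on the Tmem132a siRNA array. A seventh was below the filter. Dnm1, the neuronal dynamin, had probe sets at -0.35 and 0.64. Ehd3, the remaining EHD gene, lay at 0.06. Partners of EHD proteins in recycling ranged from -0.38 for Rab11fip2 to 0.48 for Snap29.

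Related lists were set beside the caveolar genes by counts and medians. Genes of caveola-linked kinases, receptors and tethers had 15 of 20 past the filter and a median of 0.16, with 1 at least 2-fold lower and 0 at least 2-fold higher. The 1 was Flna, filamin A, an actin crosslinker that binds caveolin-1 and tethers caveolae to stress fibres. Its probe set had a signal of 3601.4 with the Tmem132a siRNA and 8141.0 with the control siRNA, a log2 ratio of -1.18. Fyn, a Src-family kinase, had the largest ratio on the other side, 0.78 over 2 probe sets. Scarb1, the HDL receptor, which resides partly in caveolae, gave -0.52 over 3 probe sets. Igf1r, the IGF-1 receptor, gave -0.70 over 4 probe sets past the filter. Another Igf1r probe set, below the filter, went the other way, with 86.5 for the Tmem132a siRNA and 21.7 for the control siRNA. Prkca gave 0.55 over 3 probe sets, and 9 of the 15 genes had a ratio above 0 and 6 below.

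The clathrin coat, the other main route of entry, had 21 of 23 genes past the filter and a median of 0.01, with 1 at least 2-fold lower and 0 higher. That gene was Hip1r, an adaptor between clathrin and actin, at -1.07 over 3 probe sets. It passed the filter only through the control siRNA array, and its ratio was -0.56 with the pseudocount. Eps15, an endocytic scaffold, lay at -0.76 over probe sets from -1.54 to -0.15. With no filter Eps15 lay at -0.29, where a dim probe set at 1.12 entered. Itsn1 had the largest ratio on the other side, 0.60, over probe sets from -0.34 to 1.38. In this list 11 genes had a ratio above 0 and 10 below, and the heavy chain gene Cltc lay at 0.03. Genes of flotillins and related SPFH membrane proteins had 8 of 10 past the filter and a median of 0.04. Erlin2, an endoplasmic reticulum member of that family, had 775.2 with the Tmem132a siRNA and 1600.9 with the control siRNA, a log2 ratio of -1.05. Flot2, a flotillin, lay at 0.60 and Flot1 at -0.12.

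BAR-domain genes, which bend membranes as PACSIN2 does, had 20 of 22 past the filter and a median of 0.06. Sh3gl3, endophilin A3, was the 1 gene at least 2-fold lower, with 492.3 for the Tmem132a siRNA and 1161.1 for the control siRNA, and Snx9 had the largest ratio on the other side, 0.66. Genes of recycling endosomes, where EHD proteins act, had all 20 past the filter and a median of 0.04. Rab5b, an early endosome GTPase, lay at -1.13, with probe sets at -1.49 and -0.76 that passed the filter only through the control siRNA array, and at -0.58 with the pseudocount. Rab10, a GTPase of recycling and exocytosis, lay at 0.90 over 3 probe sets. No list had a median farther from 0 than 0.16. Each of the 5 lists other than that of the family had 1 gene at least 2-fold lower and 0 at least 2-fold higher, beside 2.44% and 2.10% of all genes. These counts moved between 0 and 2 across settings, so nothing is read from them.

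**Figure D3:**
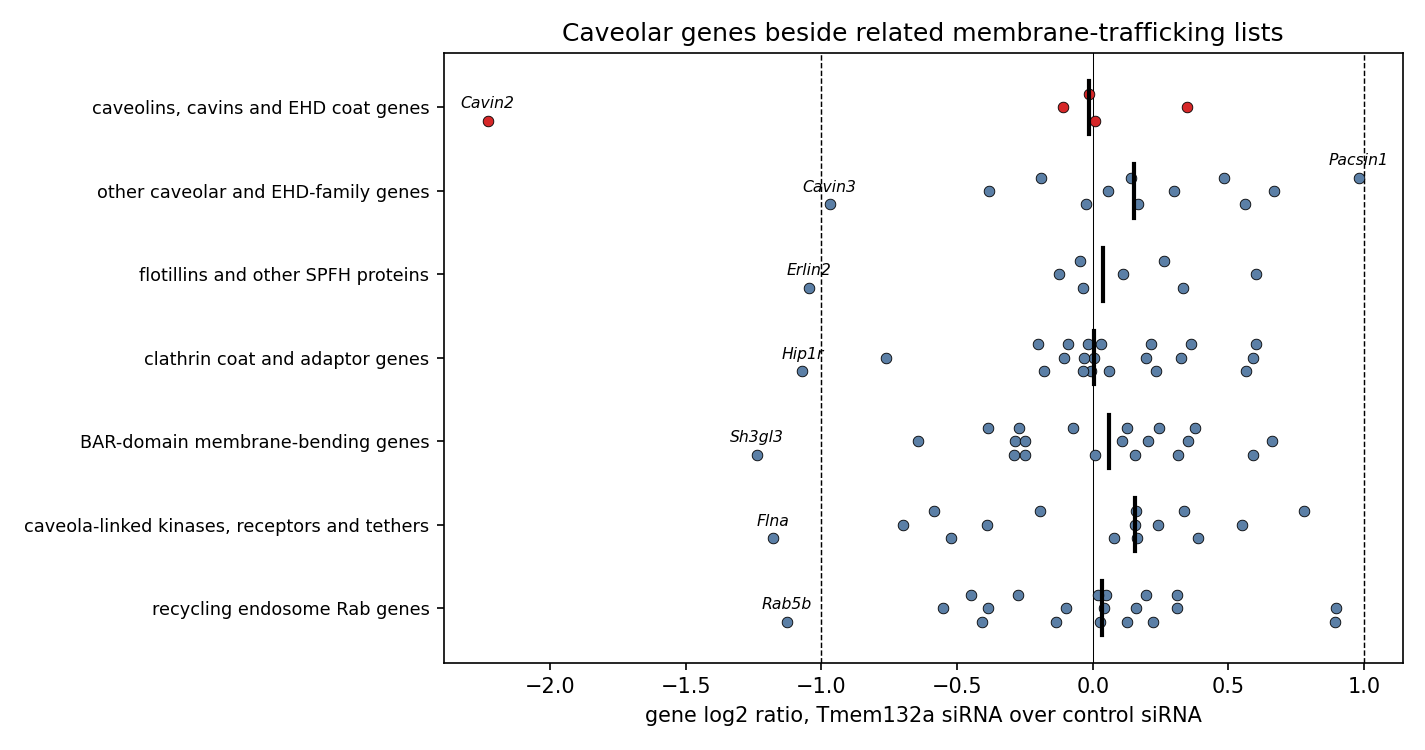
Gene log2 ratios of Tmem132a siRNA over control siRNA, 1 point per gene past the filter, for the caveolar genes (red) and 6 related lists (blue). Black bars are medians and dashed lines mark 2-fold. Cavin2 at -2.23 lies apart from the other 4 caveolar genes and below every gene of the other lists, whose lowest is Sh3gl3 at -1.24.

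The genes whose ratio was most like that of Cavin2 were taken from the 5071 other genes for which 2 or more probe sets passed, by the absolute difference of log2 ratios over the 2 arrays. The nearest was Adamts4, an aggrecan-cleaving protease, at -2.26, a difference of 0.03. Its probe sets had signals of 491.3 and 92.4 with the Tmem132a siRNA and of 1647.4 and 632.4 with the control siRNA. Mrvi1, a substrate of cGMP-dependent kinase, followed at -1.91, Fblim1, a filamin-binding adaptor, at -1.87, Rnf225 at -1.83 and Tnnt2, cardiac troponin T, at -1.70. Rnf225 rests on probe sets of -0.54 and -3.13 that disagree. The probe sets past the filter gave -1.87 and -1.88 for Fblim1 and -1.66 and -1.74 for Tnnt2. Fblim1 was at -1.16 with the pseudocount, and Tnnt2 at -1.04 with no filter, where a dim probe set at 0.30 entered. The dimmer probe sets of Mrvi1, Fblim1 and Rnf225 passed only through the control siRNA array. With 2 arrays, likeness means only an equal ratio, and 2 of the 5072 genes with several probe sets, Adamts4 and Cavin2, lay at or below -2.23.

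Markers of cell types were read beside these values. Of 15 sympathetic neuroblastoma markers, 14 had a probe set, and all 14 passed the filter. Over all genes with a probe set of 1 symbol, 10678 of 18193 passed, so passing does not by itself identify the line. All 14 had a ratio below 0, from -0.67 for Ret to -0.03 for Chgb, with summed signals of 61503.5 on the Tmem132a siRNA array and 76335.5 on the control siRNA array. Over all genes 48.2% had a ratio below 0. Of 10 endothelial markers 2 passed, Eng at -0.42 and Plvap at 1.54. Plvap had 129.1 with the Tmem132a siRNA and 44.4 with the control siRNA, so it passed only through the Tmem132a siRNA array. The endothelial list had summed signals of 739.1 with the Tmem132a siRNA and 798.2 with the control siRNA. Of 8 adipocyte markers with a probe set 1 passed, Pparg at 1.21 (373.9 with the Tmem132a siRNA, 162.1 with the control siRNA), and the sums were 657.1 with the Tmem132a siRNA and 438.7 with the control siRNA.

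The summed signal of smooth muscle and fibroblast markers was lower on the Tmem132a siRNA array, mainly through 1 probe set. Of 13 genes 1 passed the filter, Acta2, smooth muscle actin, whose probe set 1416454_s_at had 2712.7 with the Tmem132a siRNA and 10520.2 with the control siRNA, and probe sets of that kind can match related genes. Its other probe sets were dim and not lower, at 45.9 and 7.6 with the Tmem132a siRNA and 26.7 and 5.9 with the control siRNA. The summed signals of the list were 3185.6 with the Tmem132a siRNA and 11248.9 with the control siRNA. Without that probe set they were 472.9 with the Tmem132a siRNA and 728.7 with the control siRNA, over 24 probe sets, none above 81.1 on the Tmem132a siRNA array or 96.0 on the control siRNA array. No marker of these lists was listed at 0, and Tagln, Cnn1, Myh11, Col1a1 and Pecam1 were each under 40 on both arrays. Others were brighter without passing the filter. With the Tmem132a siRNA and the control siRNA, a Pdgfra probe set read 39.7 and 96.0 and a Col1a2 probe set 81.1 and 52.1. The endothelial marker Cldn5 read 49.1 and 104.0 in the same order. The part of these or the neuroblastoma markers in the Cavin2 value was not tested.

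Across 10 alternative ways of processing, Cavin2 kept a ratio between -2.30 and -1.96. It was the 1 caveolar gene at least 2-fold lower each time. Some alternatives could not move it, since its probe sets lay above the floor and both signal filters, and the trimmed means were already equal. Its ratio thus stayed at -2.23 with no floor, no filter, the 75th percentile filter or signals as deposited. Those settings are no separate checks of Cavin2, which was chosen for its low ratio. The plot of gene ratios by setting shows its points far to the left in every row, while those of Ehd1 and Ehd2 cross or touch 0.

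**Figure D4:**
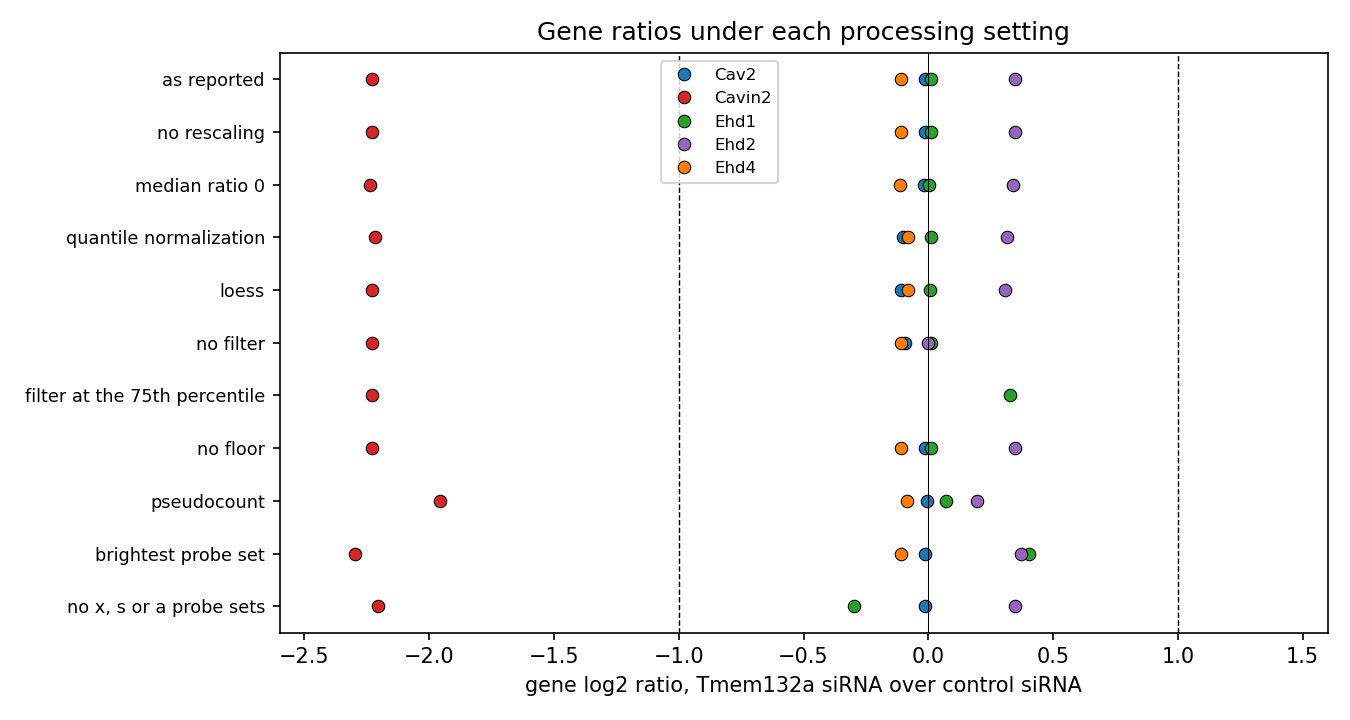
Gene log2 ratio of Tmem132a siRNA over control siRNA for the 5 caveolar genes past the filter, as reported and under each of 10 alternative settings. Dashed lines mark 2-fold, and a missing point means that the gene had no value in that setting. Cavin2 stays at or below -1.96, and the other 4 genes stay within 2-fold, with Ehd1 between -0.30 and 0.40.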

How the data were processed

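Neuro2a cells were measured on 1 array per group, grouped by sample title. RNA was extracted with Trizol, per the labels' protocols. The deposited table holds 1 signal intensity per probe set, a linear MAS5 value made by the authors, per the labels and the submitters' processing notes. Its version, any scaling and a genome build are not given in the sources used here, and detection calls were not used here.

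Of 45101 probe sets, 64 controls were left out, and 34945 of the other 45037 had 1 symbol in the platform annotation, 932 several, and 9160 were unlisted. Both arrays were set to 1 trimmed mean (2% off each end). Signals under the 20th percentile (14.5) were set to it. A gene's value is the mean log2 ratio of its probe sets with a mean signal of 77.25 (the median) or more. Genes were called at 2-fold, with no test. Genes named are the members, Tmem132a, list members at 2-fold (otherwise the 2 largest ratios of a list), further list members chosen after their values were seen, and the 5 genes nearest Cavin2 in ratio. The members and lists were chosen with earlier results of these data known. Python 3.11.15, numpy 2.4.6, pandas 2.3.3, scipy 1.17.1, statsmodels 0.14.6 and matplotlib 3.10.9 were used. The procedure was tested on simulated data with the same noise at every brightness and no variation between cultures. That checked the calculation and does not show how reliable the 2-fold calls are. The alternatives changed the normalization (quantile, loess with a span of 0.3, ratios centred on a median of 0, or signals left as deposited), the filter (none, or 462.8, the 75th percentile), the floor (none, or 79.2 added to signals instead) and the probe sets (the brightest per gene, or those without x, s or a in the suffix). The number of arrays limits the precision of every value.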

Additional observations from a re-analysis of the deposited data

How the results depend on the processing

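No paired analysis was possible because each group had 1 array, and for the same reason no array could be left out. A ratio was counted as moved when it changed by more than 0.39, the SD of log2 ratios of probe sets around their gene's mean, and a count when it changed more than 1.5 times. Several alternatives could not change the ratio of Cavin2, as given above. The count of caveolar genes at least 2-fold lower was 1 in all 10 alternatives and the count at least 2-fold higher was 0. Their median was -0.95 with the filter at the 75th percentile, where only Cavin2 and Ehd1 had values, and between -0.15 and -0.01 in the other 9. Over all genes, the 261 at least 2-fold lower became 881 with no filter, 90 with the filter at the 75th percentile and 79 with the pseudocount, and the 224 at least 2-fold higher became 1309, 44 and 49 in the same settings. Signs were followed across settings only for the members, Tmem132a, the list genes named by rule and the 5 genes nearest Cavin2. Among these, no gene at least 2-fold different changed sign, but some small values did. Ehd1 (0.01) was -0.30 without x, s or a probe sets and Ehd2 (0.35) was 0.00 with no filter. Lowest list medians were -0.08 for clathrin, -0.15 for BAR-domain, and -0.04 each for caveola-linked and recycling genes. Across settings the lists had 0 to 2 genes at least 2-fold lower. The count at least 2-fold higher was 2 for clathrin by the brightest probe set and 1 with no filter or the 75th percentile filter, and 1 for recycling genes with no filter. Of 446 alternative values 414 did not move and 32 did, among them the ratios of Adamts4 (to -1.75 by its brightest probe set), Fblim1, Tnnt2, Mrvi1, Eps15, Pacsin1, Hip1r, Rab5b and Rnf225. Erlin2, at -0.98 with the pseudocount, Hip1r, Rab5b and Rnf225 were under 2-fold in at least 1 alternative. Signal limits what could be read: Cav1 and Cavin1 had values only with no filter.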
